A study of Mus musculus with 12 samples.

Results

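The genes described here are 74 protein-coding genes of mouse bone marrow-derived dendritic cells (BMDCs) that stood at a lower level after lipopolysaccharide (LPS) and at a higher level when the cells had first received JSH-23. They were selected on measured values: a mean of at least 2 CPM (read counts relative to the library's total, scaled between libraries by TMM factors, which assume that most genes do not change) in untreated cells, a mean after LPS of at most 50% of that level, and a mean after LPS with JSH-23 of at least 2 times the mean after LPS alone. Of 55335 genes listed, 14357 were tested and 12299 of those were protein-coding. In 750 protein-coding genes the first and second criteria held, and in 86 all 3 did. Removing symbols of large families (those beginning with Slc, Zfp, Trim, Arhg, Dock, Rab or Hist) took out 12 genes and left 74. The 664 genes that met the first and second criteria but stayed under 2 times the LPS level with JSH-23 are called the other LPS-lowered genes and serve as the comparison set.

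BMDCs were grown from the bone marrow of C57BL/6 mice, males and females 8 to 12 weeks old per the study's methods, for 6 days with the cytokine GM-CSF. All cells carried CreER, a tamoxifen-inducible recombinase expressed from the ubiquitous Rosa26 locus, with both Ctcf alleles intact (CreER;CTCF wt/wt), and the methods state that 4-hydroxytamoxifen was added to the cultures on the first day and that CD11c+ cells were selected with beads. There were 4 groups of 3 libraries: WT (untreated), WTL (LPS at 100 ng/ml for 3 h), WT + JSH23 (JSH-23 at 100 µM for 3 h) and WTL + JSH23 (JSH-23 followed by LPS, at the same doses and times). By these times, the cells of WTL + JSH23 may have been collected later after the addition of JSH-23 than those of WT + JSH23. This was not settled, and LPS and such a difference in time cannot be told apart between these groups. The labels name no solvent control for the cultures without JSH-23, so JSH-23 and its solvent cannot be told apart, and GM-CSF cultures hold more than 1 kind of myeloid cell. In such bulk samples, fewer cells of a type and less RNA per cell cannot be told apart.

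LPS binds the receptor TLR4 and, through MyD88 and TRIF, releases NF-κB dimers such as RelA-p50 from their inhibitors, so that they enter the nucleus and switch on cytokine and effector genes within hours. Many genes of the resting cell decline over the same hours, through reduced transcription, through decay of their mRNA or through both. JSH-23 is a small molecule used to keep RelA from entering the nucleus. Genes that decline after LPS in dendritic cells include chemokine receptors and other surface receptors of the immature state, lipid synthesis enzymes and cell cycle genes. Members given each of these roles, after the values had been seen, were among the 74. A written list of 31 tested cell cycle and DNA replication genes held 0 members, although 12 of its genes met the first and second criteria.

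Total expected counts per library were between 24664724 and 34837847, and the ranges of the groups overlapped. Mitochondrially encoded genes held between 3.15% and 3.64% of the counts. All 10 dendritic cell markers examined, among them Itgax, H2-Ab1 and Cd74, were expressed. Their summed level ran from 14300 to 14500 CPM in WT, 15300 to 16000 in WTL, 12900 to 13300 in WT + JSH23 and 13400 to 14400 in WTL + JSH23, and 6 of the 10 fell and 2 rose with JSH-23 without LPS. Among the WTL + JSH23 libraries, replicate 3 was the highest for 46 of the 74 genes and replicate 2 for 5. The median level of the 74 genes relative to the WT mean was 82.4%, 79.6% and 91.6% in WTL + JSH23 replicates 1, 2 and 3. The level of the 74 genes relative to WT is therefore also given without replicate 3.

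The values that chose the genes are given as a description, with no test. As a percentage of the WT mean, WTL ran from 0% to 49.2% over the 74 genes, with a median of 32.7%. The median log2 difference between WTL + JSH23 and WTL was 1.31, and its quartiles were 1.11 and 1.62. The genes just inside the WT threshold were Fam83f at 2.03 CPM and Napb at 2.08, and those just outside it were Pdgfc at 1.98 and Ift74 at 1.89. For the ratio of WTL to WT, Aldh18a1 (0.492) and Afmid (0.473) lay just inside, and Uck2 (0.511) and Acvrl1 (0.517) just outside. For the ratio of WTL + JSH23 to WTL, Cd244a (2.02) and Atad2 (2.02) lay just inside, and S1pr2 (1.998) and Oxnad1 (1.99) just outside.

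RefSeq promoter windows on GRCm38.p6, from 250 bases before to 50 after a transcript start, were matched by symbol for 57 of the 74 genes, which gave 77 windows. Because JSH-23 is directed at RelA, the κB motif was the first searched, as GGGNNTTCC or GGGNNTTTC on either strand. It was present in 6 of the 77 windows (7.79%), in 66 of 718 windows of the other LPS-lowered genes (9.19%), in 10.8% of 12380 windows of all protein-coding genes tested and in 9.53% of all 32851 windows. The 6 windows belonged to Cxcr4, Cd300lb, E2f2, Klhl21, Ankrd28 and Cnnm2. The windows of the first 4 are shown in the direction of transcription, with the κB match in capitals, because they include 3 of the members most reduced by LPS in the presence of JSH-23. The start of the match lies 223 bases before the transcript start in Cxcr4 (chr1:128592250-128592549, minus strand), 43 in Cd300lb (chr11:114934322-114934621, minus strand), 187 in E2f2 (chr4:136172024-136172323, plus strand) and 150 in Klhl21 (chr4:152008641-152008940, plus strand).
Cxcr4: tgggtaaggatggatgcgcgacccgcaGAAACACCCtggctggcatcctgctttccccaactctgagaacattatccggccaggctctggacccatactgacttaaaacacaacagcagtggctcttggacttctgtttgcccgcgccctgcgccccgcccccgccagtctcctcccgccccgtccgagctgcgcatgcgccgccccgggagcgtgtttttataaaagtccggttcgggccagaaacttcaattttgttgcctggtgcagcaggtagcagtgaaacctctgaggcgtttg
Cd300lb: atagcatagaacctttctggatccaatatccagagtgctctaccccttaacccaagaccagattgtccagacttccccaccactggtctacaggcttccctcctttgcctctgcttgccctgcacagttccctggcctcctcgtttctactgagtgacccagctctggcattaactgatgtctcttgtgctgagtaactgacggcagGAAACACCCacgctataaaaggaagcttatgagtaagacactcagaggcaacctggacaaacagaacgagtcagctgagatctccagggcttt
E2f2: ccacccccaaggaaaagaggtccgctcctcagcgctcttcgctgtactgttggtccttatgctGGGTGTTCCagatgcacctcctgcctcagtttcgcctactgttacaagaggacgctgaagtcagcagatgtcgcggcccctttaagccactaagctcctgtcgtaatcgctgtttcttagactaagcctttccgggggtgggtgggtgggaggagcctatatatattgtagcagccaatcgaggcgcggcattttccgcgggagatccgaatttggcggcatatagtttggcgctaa
Klhl21: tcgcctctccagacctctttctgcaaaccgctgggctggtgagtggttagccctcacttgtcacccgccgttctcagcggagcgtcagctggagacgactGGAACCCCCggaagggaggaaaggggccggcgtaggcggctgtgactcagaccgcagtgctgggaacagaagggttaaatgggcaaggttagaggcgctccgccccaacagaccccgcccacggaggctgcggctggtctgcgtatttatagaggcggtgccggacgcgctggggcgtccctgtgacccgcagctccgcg

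The matches in Cxcr4 and Cd300lb are the same 9 letters, on the strand opposite to transcription. No κB match lay in the windows of Lhfpl2, Ptger2, Arrdc3 or Cipc, which says only that these letters are not in these windows. The E-box letters CACGTG were present in 15 of 77 windows (19.5%), in 9.89% of windows of the other LPS-lowered genes, in 9.77% of those of protein-coding genes tested and in 7.15% of all windows. The ETS letters GGAAGT were present in 9 windows (11.7%), against 26.2%, 28.7% and 23.8% in the same order. GC boxes (GGGCGG) were present in 50 windows (64.9%), against 59.1%, 61.7% and 35.7%. The other motifs were in 6 windows or fewer. AP-1 letters (TGACTCA or TGAGTCA) were in 6 windows (7.79%), against 4.46%, 3.82% and 5.2%. The TATA letters TATAAA were also in 6 (7.79%), against 7.24%, 7.06% and 13.6%, and the interferon response letters GAAANNGAA in 5 (6.49%), against 7.66%, 7.32% and 8.56%. One window each (1.3%) held the ATF4 composite (TGATGCAA or TGATGAAA), against 1.39%, 1.27% and 1.9%, the C/EBP letters TTGCGCAA, against 0.139%, 0.315% and 0.183%, and the forkhead letters TGTTTAC, against 2.65%, 2.57% and 3.65%. The CRE letters TGACGTCA were in 0, against 0.975%, 3.06% and 1.79%. Several genes contributed more than 1 window and some windows overlapped, so the windows are not independent. Median GC content was 62% in the windows of the 74 genes, 59.7% in those of the other LPS-lowered genes, 60.7% in those of protein-coding genes tested and 52.7% in all windows.

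To ask what JSH-23 did to these genes without LPS, WT + JSH23 was compared with WT. The WT libraries also entered the choice of the genes, and the WT + JSH23 libraries did not. Of the 74 genes, 50 rose and 2 fell at an adjusted p under 0.05 (edgeR's quasi-likelihood test over all genes), against 18.8% of all genes tested higher and 22.1% lower. Among the other LPS-lowered genes 69 of 664 (10.4%) rose and 300 (45.2%) fell. The 2 sets were separated by their ratio of WTL + JSH23 to WTL, itself a difference made by JSH-23. A gene that JSH-23 raises with and without LPS was thus more likely to be among the 74. More rises at rest in the 74 genes than in the other LPS-lowered genes were favoured by the choice. The median log2 difference was 0.50 in the 74 genes, -0.18 in the other LPS-lowered genes and -0.01 in all genes tested. With a change of more than 2-fold also required, 14 of the 74 genes rose and 0 fell, against 2.43% and 2.94% of all genes, and 2 of the other LPS-lowered genes rose. Lhfpl2, Arrdc3, Cipc, Rassf8 and Wfs1 had the largest rises among members with at least 5 CPM in WT, and Ccnf was the member of that level that fell.

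To ask whether LPS still lowered these genes in the presence of JSH-23, WTL + JSH23 was compared with WT + JSH23. The WTL + JSH23 libraries also entered the choice of the genes. Of the 74 genes, 67 fell and 1 rose, against 27.1% of all genes tested lower and 27.4% higher. With a change of more than 2-fold also required, 35 fell and 0 rose, against 4.49% and 5.85% of all genes. In the other LPS-lowered genes 643 of 664 fell, 279 of them by more than 2-fold. The median log2 difference was -0.89 in the 74 genes and -0.93 in the other LPS-lowered genes, where the same medians without JSH-23 were -1.62 and -1.33. The latter are values the rule used, and the 2 sets were separated by their ratio of WTL + JSH23 to WTL. A smaller LPS change with JSH-23 in the 74 genes was thus favoured by the choice. WTL + JSH23 was at a median of 53.9% of WT + JSH23, with a range from 6.43% to 129%. The 6 genes that did not pass the test were Ints6l, Atg4c, Afmid, Gm14440, Glrp1 and Rnf113a1. That the 74 genes stood higher after LPS with JSH-23 than after LPS alone was required by the rule and is not a result. With JSH-23 present, 67 of them were still lower with LPS than without it.

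**Figure D1:**
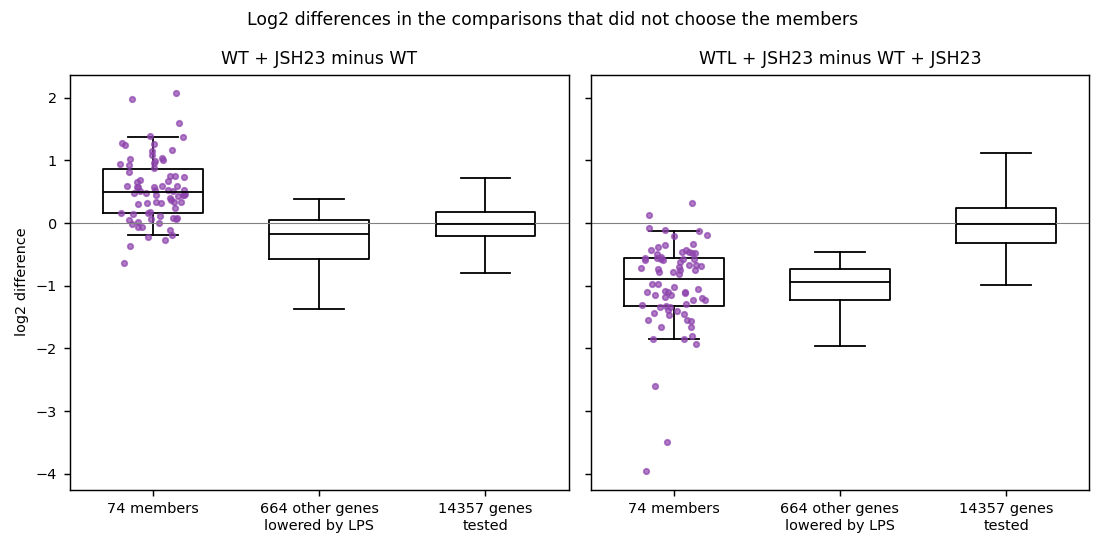
Log2 differences (vertical axis) for WT + JSH23 minus WT (left) and WTL + JSH23 minus WT + JSH23 (right) in the 74 genes, the 664 other LPS-lowered genes and all 14357 genes tested. Boxes show the median and quartiles, whiskers the 5th and 95th percentiles, and points the 74 genes; the 74 genes have a median of 0.50 on the left, above the other LPS-lowered genes at -0.18, and medians of -0.89 and -0.93 on the right. The difference between these sets on the left was favoured by the choice of the genes.

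The calls of both tests were crossed as a description. Shares of these combinations over all genes tested were not counted. For each test alone, 18.8% of all genes tested rose with JSH-23 without LPS and 27.1% fell with LPS in its presence. In the other LPS-lowered genes these shares were 10.4% and 96.8%. In 49 genes JSH-23 raised the level without LPS and LPS lowered it in the presence of JSH-23. In 16 genes the resting change did not pass and LPS lowered the level, and in 6 neither passed. Ccnf and Neurl1b were lowered by both, and 1 gene was raised by both. The resting log2 difference was at least 1 in 14 genes, at least 50% of the difference that JSH-23 made under LPS in 27, and under 0.25 in size in 19. The difference under LPS is a value the rule used, so the count of 27 depends on the choice of the genes. The interaction, the LPS change with JSH-23 minus that without, had a median of 0.88 in log2 and was above 1 in 24 genes; it shares its values with the rule and was not tested.

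Set against untreated cells, WTL + JSH23 stood at a median of 87.1% of WT over the 74 genes, with quartiles of 57% and 104% and a range from 9.02% to 229%. The mean lay between 80% and 125% of WT in 31 genes, at or above WT in 21 and under 50% in 17. All 3 WTL + JSH23 libraries lay below all 3 WT libraries in 34 genes, against 33.7% of all genes tested, and above them in 14, against 32.3%. The libraries of the 2 groups overlapped in the other 26 genes. Without WTL + JSH23 replicate 3, a setting chosen for the overlap counts after the data had been seen, the other 2 libraries lay below all WT libraries in 41 genes, against 36.6% of all genes tested, and above them in 15, against 35.1%, and overlapped them in 18. Cln8, Tpra1, Amz1, Klhl21, Natd1, Xpc and Cnnm2 moved from overlapping to below, and Ankrd28 from overlapping to above. The mean was then at or above WT in 16 genes and under 50% of it in 16, the median was 82.7% of WT, and the calls for LPS with JSH-23 were 67 lower and 0 higher.

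**Figure D2:**
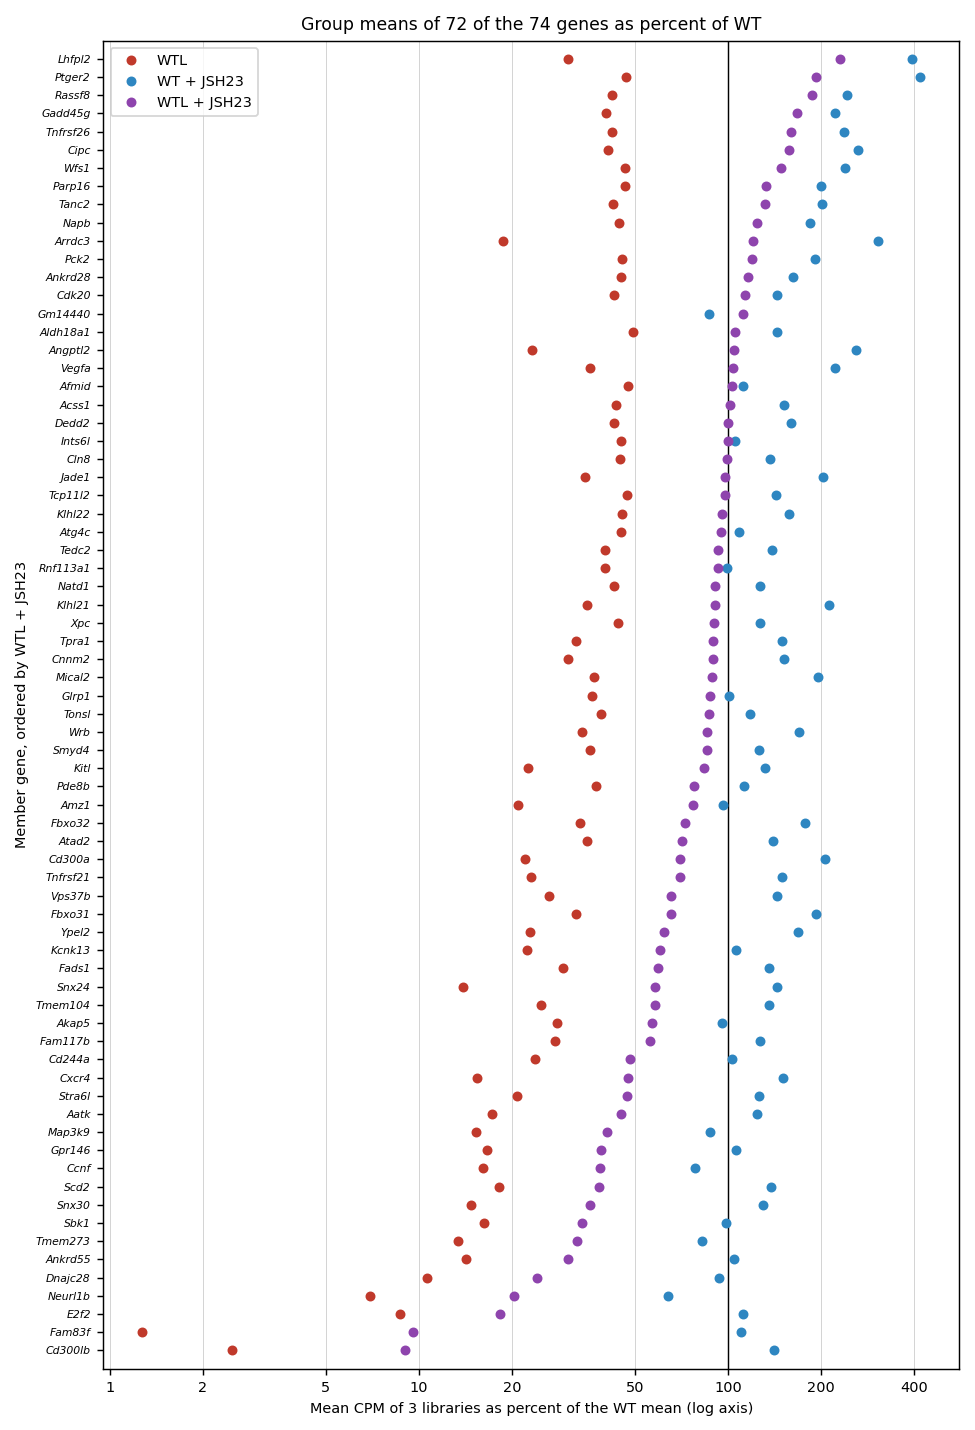
Mean CPM of 3 libraries as a percentage of the WT mean (log axis) for 72 of the 74 genes, ordered by WTL + JSH23; points are WTL, WT + JSH23 and WTL + JSH23, and the line marks WT. WTL lies at or under 49.2% for every gene shown (Gm14440, at 0 in WTL, has no WTL point), WTL + JSH23 runs from 9.02% in Cd300lb to 229% in Lhfpl2, and WT + JSH23 reaches 419% in Ptger2.

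The genes were sorted by known role after their values had been seen, and the groups are used as an order of description only. Over all 74 genes, 50 rose with JSH-23 without LPS and 67 fell with LPS in its presence. The shares over all genes tested were 18.8% and 27.1%. The counts by role below are parts of these totals and are not read as traits of a role. Of 9 surface receptors, 7 rose with JSH-23 without LPS and all 9 fell with LPS in the presence of JSH-23. Cxcr4, the receptor for the chemokine CXCL12 that retains leukocytes in marrow and tissue, stood at 67.9, 56.4 and 62.6 CPM in WT, 8.29, 10.4 and 10.1 in WTL, 88.2, 95 and 97.6 in WT + JSH23, and 30.4, 28.0 and 30.2 in WTL + JSH23. The 4 groups did not overlap, and WTL + JSH23 lay between WTL and WT at 47.4% of the WT mean. JSH-23 without LPS raised it by 0.59 in log2 (SE 0.0618, adjusted p = 8.88e-08), and LPS lowered it by 1.66 with JSH-23 present (log2 difference -1.66, SE 0.0677, adjusted p = 8.83e-15).

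Ptger2, the EP2 receptor for prostaglandin E2, which raises cyclic AMP, had 4.34, 4.64 and 5.31 CPM in WT, 2.05, 2.10 and 2.53 in WTL, 20.6, 19.5 and 19.7 in WT + JSH23, and 9.46, 9.99 and 8.08 in WTL + JSH23. Every library with JSH-23 was above every library without it. The resting rise, 2.07 in log2 (SE 0.0892, adjusted p = 8.46e-14), was the largest of the 74 genes in that comparison, beside a difference of 2.06 under LPS that the rule used. The LPS change was -1.12 with JSH-23 (SE 0.0838, adjusted p = 2.55e-10) and -1.10 without, the latter a value the rule used. Tnfrsf26, a mouse receptor of the tumour necrosis factor receptor family, had the same order of groups, at means of 3.40 CPM in WT, 1.43 in WTL, 8.04 in WT + JSH23 and 5.41 in WTL + JSH23.

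Cd300lb and Cd300a belong to a family of paired myeloid receptors for lipids, in which Cd300lb signals through activating adaptors and Cd300a carries inhibitory motifs. Both genes lie in the Cd300 cluster of chromosome 11. Cd300lb had 61.2, 67.7 and 58.9 CPM in WT, 1.08, 1.60 and 1.98 in WTL, 89.2, 90.4 and 83.7 in WT + JSH23, and 5.95, 5.45 and 5.53 in WTL + JSH23. It met the rule through its ratio to WTL, yet remained at 9.02% of WT, and LPS lowered it by more than any other member in the presence of JSH-23 (log2 difference -3.95, SE 0.08, adjusted p = 7.92e-20). Cd300a had 20.2, 22.4 and 19.9 CPM in WT, 42.2, 42.6 and 43.7 in WT + JSH23, 4.38, 4.23 and 5.16 in WTL, and 14.2, 14.6 and 14.9 in WTL + JSH23. JSH-23 without LPS thus raised Cd300a by 1.03 in log2 (SE 0.0562, adjusted p = 3.09e-12) and Cd300lb by 0.49 (SE 0.057, adjusted p = 4.26e-07). Part of the Cd300a reads were shared with other genes by the counting, which gave it fractional counts in at least 6 libraries.

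Gpr146, an orphan G protein-coupled receptor linked to cholesterol metabolism, and Cd244a, the SLAM family receptor also called 2B4, did not pass the test for JSH-23 without LPS (log2 difference 0.08, adjusted p = 0.426, and 0.05, adjusted p = 0.729). Their means were 16.5 and 9.40 CPM in WT, 2.73 and 2.24 in WTL, 17.5 and 9.69 in WT + JSH23, and 6.42 and 4.51 in WTL + JSH23. Tnfrsf21, a death domain receptor, and Tpra1, a membrane protein of receptor-like topology, both rose by 0.58 in log2 with JSH-23 without LPS (adjusted p = 2.17e-06 and 1.1e-06). With LPS and JSH-23 the former stood at 69.8% and the latter at 89.1% of WT.

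**Figure D3:**
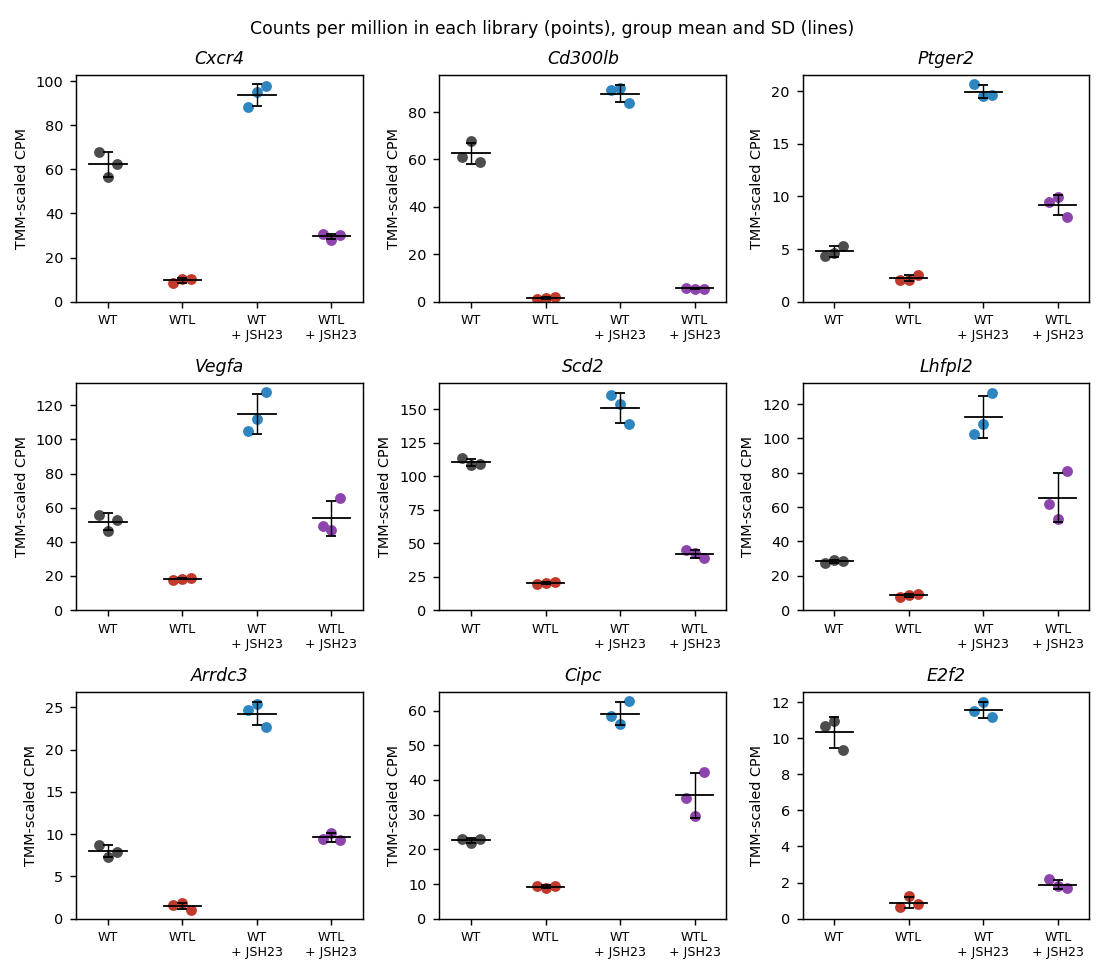
TMM-scaled CPM (vertical axes, from 0) of 9 of the 74 genes in each library of WT, WTL, WT + JSH23 and WTL + JSH23; points are libraries, and lines are the group mean and SD. WTL is the lowest group in all 9 genes, WTL + JSH23 lies below WT in Cxcr4, Cd300lb, Scd2 and E2f2 and above it in Ptger2, Lhfpl2, Arrdc3 and Cipc, and in Vegfa both overlap.

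The 3 genes of secreted factors all rose with JSH-23 without LPS and fell with LPS in its presence. Vegfa, the main growth factor of blood vessels, stood at 55.9, 46.5 and 53 CPM in WT, 17.9, 18.5 and 19.1 in WTL, 105, 112 and 128 in WT + JSH23, and 49.0, 46.9 and 65.6 in WTL + JSH23. WTL + JSH23 overlapped WT, also without replicate 3, which was its highest library (104% of WT with it and 92.6% without). The resting rise was 1.15 in log2 (SE 0.0902, adjusted p = 9.79e-10), and the LPS change with JSH-23 was -1.10 (SE 0.0916, adjusted p = 1.49e-09). Angptl2, an angiopoietin-like factor, had means of 3.17, 0.733, 8.22 and 3.32 CPM in WT, WTL, WT + JSH23 and WTL + JSH23. Kitl, the stem cell factor that acts on the receptor Kit, had 5.06, 1.14, 6.66 and 4.21 CPM in the same order.

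All 5 genes of lipid and vitamin A metabolism rose with JSH-23 without LPS and fell with LPS in its presence. Scd2, a stearoyl-CoA desaturase that makes monounsaturated fatty acids, had 113, 109 and 109 CPM in WT, 19.3, 20 and 20.7 in WTL, 161, 154 and 139 in WT + JSH23, and 44.8, 42.7 and 38.9 in WTL + JSH23. The groups did not overlap, and WTL + JSH23 reached 38.2% of WT. Fads1, a desaturase of polyunsaturated fatty acids, had the same order of groups and reached 59.3% of WT. Stra6l, a retinol transport protein, reached 47%. Acss1, a mitochondrial acetyl-CoA synthetase, reached 101%, with WTL + JSH23 libraries at 19.6, 19.1 and 22.7 CPM among the WT libraries at 21.4, 19.6 and 19.6.

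Among 6 channels and other membrane proteins, 4 rose with JSH-23 without LPS and all 6 fell with LPS in its presence. Lhfpl2, a tetraspan membrane protein, had 27.7, 29.4 and 28.5 CPM in WT, 7.75, 8.60 and 9.62 in WTL, 103, 108 and 126 in WT + JSH23, and 61.9, 53.1 and 81.2 in WTL + JSH23. It had the highest ratio of WTL + JSH23 to WT, 229%, or 202% without replicate 3. The resting rise of 1.98 in log2 (SE 0.104, adjusted p = 1.87e-12) was followed by a fall of 0.78 with LPS (log2 difference -0.78, SE 0.0979, adjusted p = 6.79e-07). Wfs1, the endoplasmic reticulum protein mutated in Wolfram syndrome, had means of 12.4, 5.71, 29.6 and 18.3 CPM in WT, WTL, WT + JSH23 and WTL + JSH23. Kcnk13, a potassium channel of microglia and other myeloid cells, had means of 50.6, 11.3, 53.5 and 30.5 CPM in the same order, and its resting difference did not pass (adjusted p = 0.43). Tmem273 also did not pass at rest (-0.27 in log2, adjusted p = 0.169) and remained at 32.5% of WT.

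Of 7 endosome, vesicle and autophagy factors, 6 rose with JSH-23 without LPS and 6 fell with LPS in its presence. Cln8, which carries lysosomal enzymes out of the endoplasmic reticulum, had means of 54.2 CPM in WT, 24.2 in WTL, 73.8 in WT + JSH23 and 53.9 in WTL + JSH23, so that WTL + JSH23 was at 99.4% of WT, or 91.7% without its replicate 3. Snx30, a sorting nexin of endosomes, had 31.5, 30 and 29.9 CPM in WT, 3.87, 5.20 and 4.42 in WTL, 38.6, 39.0 and 40.5 in WT + JSH23, and 11.4, 9.11 and 12.2 in WTL + JSH23. It was among the largest falls with LPS in the presence of JSH-23 (log2 difference -1.85, SE 0.0789, adjusted p = 1.99e-14). Atg4c, a protease that processes the autophagy protein LC3 and its relatives, passed neither test, at 14.2 CPM in WT, 15.3 in WT + JSH23 and 13.4 in WTL + JSH23, with 6.35 in WTL.

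Ints6l, a paralogue of an Integrator subunit, had means of 18.9 CPM in WT, 8.51 in WTL, 19.9 in WT + JSH23 and 18.8 in WTL + JSH23, and passed neither test.

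Cipc, a repressor that binds the circadian factor CLOCK, had 22.8, 21.8 and 23 CPM in WT, 9.53, 8.80 and 9.35 in WTL, 58.4, 56.2 and 62.8 in WT + JSH23, and 34.8, 29.5 and 42.4 in WTL + JSH23. It rose by 1.39 in log2 with JSH-23 without LPS (SE 0.0816, adjusted p = 9.86e-12) and fell by 0.74 with LPS in its presence (log2 difference -0.74, SE 0.0796, adjusted p = 8.31e-08). Jade1, a scaffold of the HBO1 histone acetyltransferase complex, had means of 21.2, 7.32, 43.0 and 20.7 CPM in WT, WTL, WT + JSH23 and WTL + JSH23. Its WTL + JSH23 libraries overlapped WT.

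Of 7 ubiquitin ligase subunits and adaptors, 5 rose and 1 fell with JSH-23 without LPS, and 6 fell with LPS in its presence. Arrdc3, an arrestin-like protein that brings NEDD4 family ligases to membrane receptors, had 8.72, 7.31 and 7.90 CPM in WT, 1.59, 1.83 and 1.06 in WTL, 24.6, 25.4 and 22.7 in WT + JSH23, and 9.39, 10.2 and 9.25 in WTL + JSH23. The rise at rest was 1.61 in log2 (SE 0.084, adjusted p = 1.79e-12) and the LPS change in the presence of JSH-23 -1.34 (SE 0.0848, adjusted p = 1.6e-11). Klhl21 and Klhl22, adaptors of cullin-3 ligases, rose by 1.09 and 0.65 at rest (adjusted p = 3.05e-11 and 2.38e-07) and were at 90.5% and 95.6% of WT in WTL + JSH23. Fbxo32 (atrogin-1) and Fbxo31, F-box subunits of cullin ligases, rose by 0.82 and 0.95 at rest (adjusted p = 2.47e-08 and 6.56e-08) and were at 72.3% and 65.4%. Neurl1b, a ligase that acts on Notch ligands, fell from 4.86, 5.29 and 4.66 CPM in WT to 3.44, 3.18 and 2.86 in WT + JSH23 (log2 difference -0.64, SE 0.139, adjusted p = 0.000735). It had 26 counts over the WTL libraries. Rnf113a1 passed neither test.

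All 8 genes of cell cycle, replication and DNA repair fell with LPS in the presence of JSH-23, and 5 rose and 1 fell with JSH-23 alone. Of the 8 falls, that of Cdk20, a cyclin-dependent kinase, did not pass in 5 of 12 fits that left out a library (adjusted p up to 0.224), namely those without WTL + JSH23 replicate 1 or 2 or any of the WT + JSH23 replicates, nor in DESeq2 (adjusted p = 0.0792). That of Tonsl, a replication fork repair protein, did not pass without WTL + JSH23 replicate 2 or WT + JSH23 replicate 1 (adjusted p up to 0.0917), nor in limma (adjusted p = 0.0885), in which Ccnf did not pass either (adjusted p = 0.0702). E2f2, a transcription factor of S phase entry, had 10.7, 10.9 and 9.35 CPM in WT, 0.620, 1.23 and 0.829 in WTL, 11.5, 12 and 11.2 in WT + JSH23, and 2.20, 1.79 and 1.69 in WTL + JSH23. JSH-23 without LPS did not change it past the threshold (0.16 in log2, adjusted p = 0.212), and with LPS it remained at 18.3% of WT. Ccnf, a cyclin F-box protein, fell at rest from a mean of 6.06 to 4.72 CPM (log2 difference -0.36, SE 0.125, adjusted p = 0.0237), a call lost without any of 3 libraries (adjusted p up to 0.0931), namely WT + JSH23 replicates 1 and 2 and WT replicate 5. That fall at rest also did not pass in DESeq2 (adjusted p = 0.0562) or limma (adjusted p = 0.32). Gadd45g, a stress-induced growth arrest protein, had 4.65, 4.67 and 5.62 CPM in WT, 2.02, 1.97 and 2.03 in WTL, 11.2, 8.72 and 13.3 in WT + JSH23, and 6.73, 7.0 and 11.2 in WTL + JSH23. Its fall with LPS in the presence of JSH-23 (log2 difference -0.43, adjusted p = 0.0231) did not pass in 4 of 12 fits that left out a library, namely those without WTL + JSH23 replicate 1 or 2 or WT + JSH23 replicate 1 or 3.

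Of 9 kinases, scaffolds and signalling proteins, 4 rose with JSH-23 without LPS and all 9 fell with LPS in its presence. Rassf8, a Ras association domain protein, had 15.8, 15.9 and 14.9 CPM in WT, 6.55, 5.90 and 7.18 in WTL, 35.5, 35.6 and 41.7 in WT + JSH23, and 28.2, 21.6 and 36.7 in WTL + JSH23. It rose by 1.27 in log2 at rest (SE 0.117, adjusted p = 1.08e-08), and WTL + JSH23 lay above WT in each library. The fall of Rassf8 with LPS in the presence of JSH-23 (log2 difference -0.39, adjusted p = 0.00587) did not pass in DESeq2 (adjusted p = 0.0611). Tanc2, a synaptic scaffold protein, had 24.5, 10.4, 49.5 and 32.3 CPM in WT, WTL, WT + JSH23 and WTL + JSH23. Map3k9, a kinase upstream of JNK and the only member on the list of MAP kinases, had 2.32 CPM in WT, 0.355 in WTL, 2.03 in WT + JSH23 and 0.942 in WTL + JSH23. Its WTL value rests on 28 counts over 3 libraries.

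Of 3 genes of amino acid and mitochondrial metabolism, 2 rose with JSH-23 without LPS. Pck2, the mitochondrial phosphoenolpyruvate carboxykinase, had 8.5, 8.31 and 8.97 CPM in WT, 3.87, 4.17 and 3.68 in WTL, 14.8, 16.6 and 17.7 in WT + JSH23, and 9.74, 10.1 and 10.9 in WTL + JSH23. Aldh18a1, the enzyme that starts proline synthesis, had 11.4, 5.60, 16.4 and 11.9 CPM in the same groups. Afmid, a kynurenine formamidase, passed neither test, with 9.41 CPM in WT and 9.66 in WTL + JSH23. It overlaps exons of 2 other protein-coding genes by position and had fractional counts in 11 libraries.

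The other 12 genes were given no role. Of these, 6 rose at rest and 10 fell with LPS in the presence of JSH-23. Among the 10 falls, that of Amz1 did not pass in 4 of 12 fits that left out a library, namely those without WTL + JSH23 replicate 1 or 2 or WT + JSH23 replicate 2 or 3 (adjusted p up to 0.208), nor in DESeq2 (adjusted p = 0.178). Amz1 had fractional counts in all 12 libraries and overlaps exons of 1 other protein-coding gene by position. Fam117b had means of 45.6, 12.5, 57.6 and 25.5 CPM in WT, WTL, WT + JSH23 and WTL + JSH23. Gm14440 had 6.15, 7.82 and 0 CPM in WT, 0 counts in all 3 WTL libraries, and 2.41, 6.49 and 6.70 in WTL + JSH23. Against a floor of 3 counts per library, its WTL + JSH23 mean was at least 44.0-fold higher than WTL, and it passed neither test. It had fractional counts in 8 libraries, which means reads divided between genes, and its values are uncertain. Fam83f had 2, 0 and 0 counts in the WTL libraries and 0.248, 0.159 and 0.173 CPM in WTL + JSH23, so its place among the 74 rests on very few reads.

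**Figure D4:**
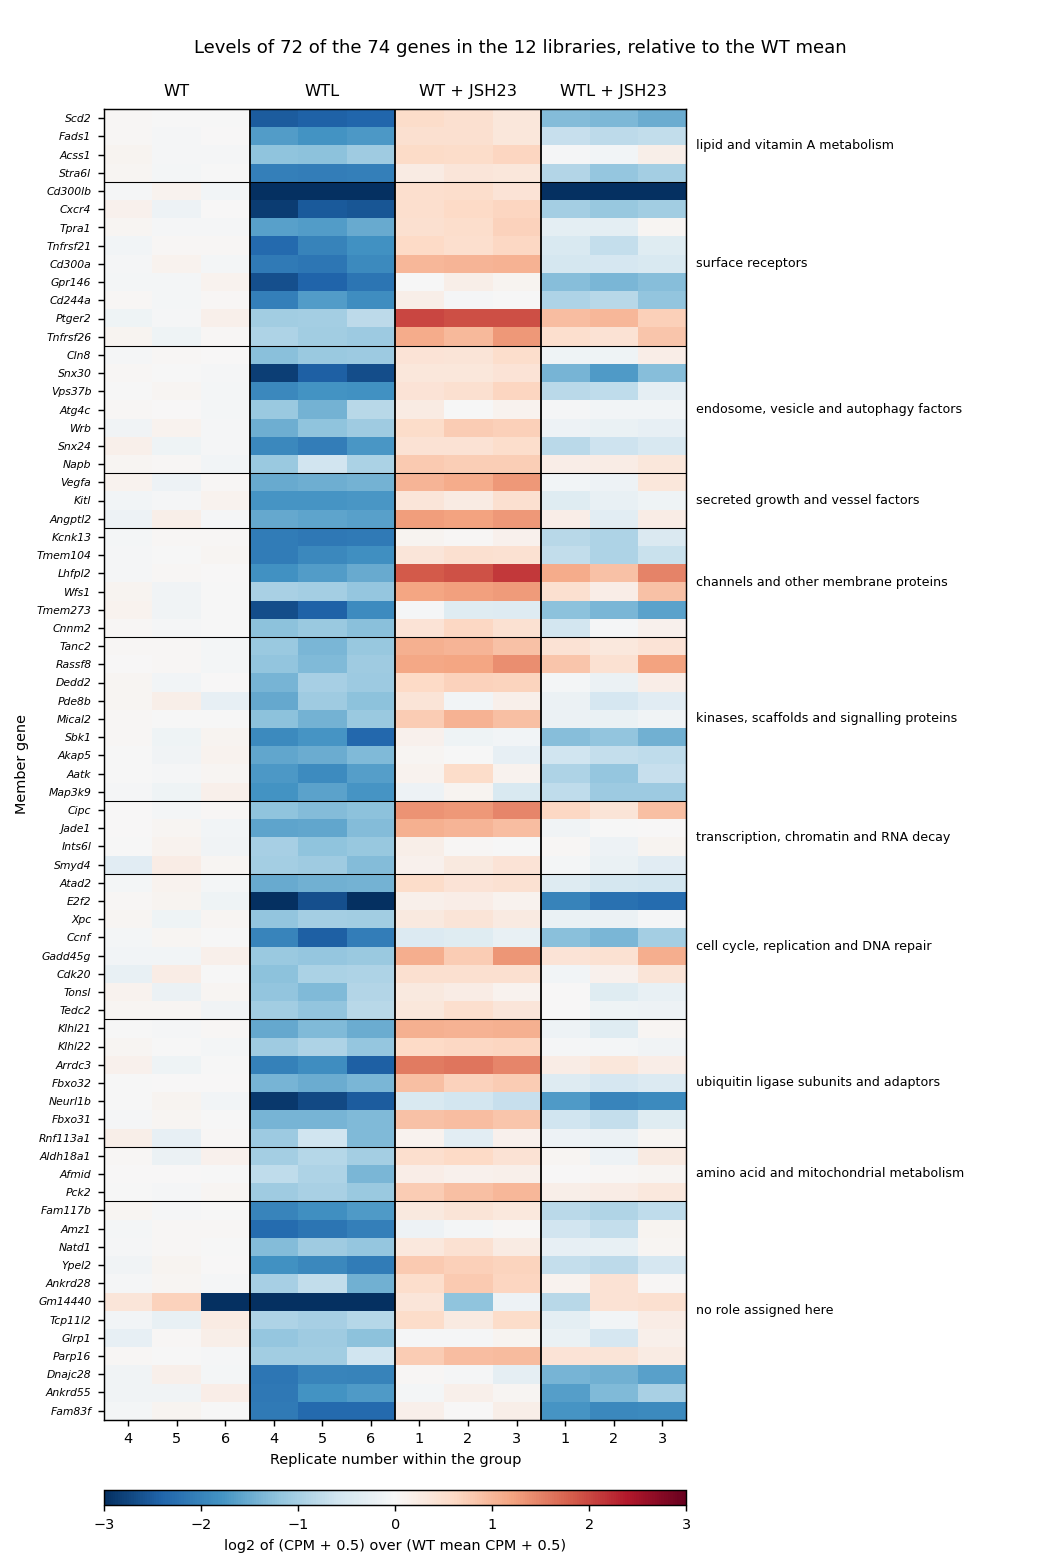
Levels of 72 of the 74 genes (rows, by role) in the 12 libraries (columns, by group), as log2 of CPM plus 0.5 relative to the WT mean plus 0.5; the colour scale ends at -3 and 3. The WTL columns are blue for every gene shown, the WT + JSH23 columns are red for most, and the WTL + JSH23 columns run from dark blue in Cd300lb, E2f2 and Neurl1b to red in Lhfpl2, Ptger2 and Cipc.

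Lists of pathway genes, written from general knowledge, placed 15 of the 74 genes on 8 of 21 lists. No member was among the 30 tested genes of the LPS receptor and NF-κB pathway or the 20 tested NF-κB target cytokines and effectors. Only 2 of the 30 and 0 of the 20 met the first and second criteria, so the rule itself left little or no room for members there. All 20 NF-κB targets rose with LPS in the presence of JSH-23, with a median log2 difference of 3.37, against 4.40 without it. Of all genes tested, 27.4% rose with LPS in the presence of JSH-23. The integrated stress response list held Aldh18a1 and Pck2, and of its 23 tested genes 17 rose and 2 fell with JSH-23 without LPS. Over all genes tested, 18.8% rose and 22.1% fell in that comparison, and the counts on every list stand beside these shares. Of 19 Nrf2 antioxidant targets, 17 rose and 2 fell in that comparison, and 0 were members, as 0 met the first and second criteria. Of 26 lysosome and autophagy genes 17 rose and 4 fell, with 0 members, and of 15 circadian clock genes 7 rose and 1 fell, with 0 members. On each of these 2 lists, 1 gene met the first and second criteria. Fbxo32 was the member among 18 FoxO targets and quiescence genes, of which 6 rose and 10 fell, and Scd2 the member among 20 sterol and fatty acid synthesis genes, of which 8 rose and 4 fell.

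Of 98 tested G protein-coupled receptors, 20 rose and 49 fell with JSH-23 without LPS, and the members on that list were Cxcr4, Gpr146 and Ptger2. Of 92 myeloid immune receptors, 14 rose and 54 fell, and the members were Cd300lb and Cd300a. Of 195 ubiquitin ligase subunits, 45 rose and 47 fell, and the members were Klhl21, Klhl22, Fbxo31 and Rnf113a1. E2f2 was the member among 233 sequence-specific transcription factors, of which 54 rose and 68 fell, and Map3k9 among 79 MAP kinases and feedback inhibitors, of which 23 rose and 24 fell. The lists with 0 members were cell cycle and DNA replication (3 of 31 rose and 16 fell), p53 targets (4 and 5 of 18), lipid-sensing nuclear receptors and lipid handling (9 and 6 of 20), TGF-β and BMP pathway (4 and 10 of 31), adhesion and guidance receptors (14 and 27 of 80), small GTPase and G protein regulators (22 and 40), phosphoinositide and lipid signalling enzymes (19 and 34 of 88) and chromatin regulators (21 and 59 of 149). In the order given, 12, 2, 3, 3, 4, 13, 8 and 9 genes of these lists met the first and second criteria and so could have been members. On the LPS receptor and NF-κB pathway list 6 rose and 14 fell, and on the NF-κB target list 6 rose and 9 fell.

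Some markers of other cells moved with JSH-23 as well. The summed level of 5 monocyte markers, all expressed, ran from 340 to 363 CPM in WT, 201 to 212 in WTL, 78.5 to 85.4 in WT + JSH23 and 60.5 to 85.7 in WTL + JSH23, and all 5 fell with JSH-23 without LPS. That of 10 macrophage markers ran from 2710 to 2880 CPM in WT, 2110 to 2220 in WTL, 2020 to 2060 in WT + JSH23 and 1710 to 1720 in WTL + JSH23, and 7 of the 10 fell with JSH-23 without LPS and 1 rose. The 11 neutrophil markers summed to 262 to 277, 241 to 249, 214 to 228 and 190 to 205 CPM in the same order, with 4 of them, among these Ly6g, under 1 CPM in every library. Most of this sum was Mmp8, with means of 221, 182, 177 and 151 CPM. Of the 7 neutrophil markers tested, 2 fell and 0 rose with JSH-23 without LPS. Over all genes tested, 22.1% fell and 18.8% rose in that comparison. Sums for mast cell and basophil, plasmacytoid dendritic cell, and T and NK cell markers stayed under 10 CPM, and B cell and erythroid markers were at or under 0.6 CPM. The summed level of the 74 genes ran from 1220 to 1242 CPM in WT, 332 to 359 in WTL, 1904 to 1967 in WT + JSH23 and 894 to 1085 in WTL + JSH23, so it rose with JSH-23 while the monocyte and macrophage sums were lower. The part of cell composition in these values was not tested.

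The 74 genes had longer transcripts than the comparison sets, with a median of 3307 nucleotides against 2821 in the other LPS-lowered genes and 2517 in all protein-coding genes tested. Their median WT level was 8.99 CPM, against 10.1 and 18.8. Chromosome 11 held 9 of them, the most of any chromosome, of which Cd300a, Cd300lb and Tmem104 lie together between positions 114890041 and 115247023 (GRCm38). The genes tested on each chromosome were not counted, so the 9 cannot be set against a share of all genes. These are descriptions of the chosen set, with no test.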

How the data were processed

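RNA-seq of 12 BMDC libraries, 4 groups of 3 named by the sample titles, was analysed. Per the study's methods and the submitters' processing notes, the authors trimmed reads with Trim Galore, aligned them to mm10 with STAR (2.6.0c in the notes, another release in the study's reporting summary) and estimated expression with RSEM on GENCODE genes of a release that is not given in the sources used here. The deposited expected counts, with reads that fit several genes divided between them, carried no filter or scaling, and the deposited TPM values are relative abundances per library. The labels name an rRNA depletion kit and the methods a poly-A kit, and this was not settled. Replicates are 3 biological replicates per the methods, and the labels name no culture or batch. Total counts were 24664724 to 34837847 per library, which leaves genes of few counts imprecise: 5 members had under 30 counts over the 3 WTL libraries. Floors cover counting error only, while the SEs come from the edgeR fit and include the spread between replicates.

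Expected counts were rounded. edgeR 4.0.16 (R 4.3.3) was fitted to all 12 libraries with TMM factors, a mean per group, 8 residual degrees of freedom and the 14357 genes kept by filterByExpr. Adjusted p values are Benjamini-Hochberg values over all of these genes, and the threshold was 0.05. Symbols came from GENCODE M21. The members, the pathway and marker lists and the tests were chosen with earlier results of these data known, and the role groups after the values were seen. WTL against WT, WTL + JSH23 against WTL and the interaction share their values with the rule and are descriptions. Genes were named by a rule: the 10 members of highest CPM in WT; among those with at least 5 CPM in WT, the 5 most extreme in each ratio of the rule and in each tested comparison; up to 4 per pathway list; and those beside each threshold. Lhfpl2, Rassf8, Arrdc3 and Cipc were among those with the highest WTL + JSH23 to WTL ratios, and Cd300lb, E2f2, Tmem273, Snx30 and Cxcr4 the lowest WTL to WT ratios. The values of 2 members are not reported here, although the counts include them. Other members were added after their values were seen. Alternatives were DESeq2 1.42.0, limma 3.58.1 on log2(TPM + 1), other scalings, filters and thresholds, a replicate block and leaving out each library.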

Additional observations from a re-analysis of the deposited data

Results flagged for a closer look

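Ccnf and Neurl1b were singled out because all libraries of a group moved in opposite ways under the same contrast in 2 settings. Ccnf was lower with JSH-23 without LPS by a log2 difference of -0.36 and higher with JSH-23 under LPS, from 0.974 to 2.33 CPM. Its resting fall did not pass in DESeq2 (adjusted p = 0.0562), in limma (adjusted p = 0.32) or in 3 of 12 fits that left out a library. The rise under LPS was required of every member by the rule. Neurl1b was lower with JSH-23 without LPS by -0.64 and higher with it under LPS, from 0.342 to 0.998 CPM. The difference between the settings was not tested, because the rule that chose the genes used it.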

How the results depend on the processing

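The number of genes meeting the rule was 69 with DESeq2 size factors and 83 with upper quartile scaling, but 160 with total counts alone, 133 with deposited TPM (55 shared with the 74), 48 with at least 5 CPM in WT, 12 with 3-fold and 367 with 1.5-fold thresholds. It ran from 71 to 84 when a library was left out, and 54 of the 74 genes met the rule in all 12 such fits. Total counts alone shifted the median log2 difference of all genes by -0.33 between WTL and WT, -0.24 between WTL + JSH23 and WT + JSH23, 0.13 between WTL + JSH23 and WTL and 0.04 between WT + JSH23 and WT, so the choice of genes depends on the scaling. The median of WTL + JSH23 as a percentage of WT was 87.1% as reported, 75.7% with total counts alone, 74.4% with deposited TPM and 82.7% to 88.4% with a library left out. Total counts alone were added as an alternative for the tests after the data had been seen.

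Genes raised by JSH-23 without LPS numbered 50 in edgeR under each scaling, without the filter and in DESeq2, 46 in limma, 14 with more than 2-fold and 49 to 51 with a library left out. Genes lowered by it numbered 2, but 1 in DESeq2, 1 in limma, 0 with more than 2-fold and 1 to 2 with a library left out. Genes lowered by LPS with JSH-23 numbered 67, between 64 and 71 under the other scalings and tools, 35 with more than 2-fold and 63 to 68 with a library left out. Genes raised by LPS with JSH-23 numbered 1, but 0 with upper quartile scaling, without the filter, in limma, with total counts alone and with more than 2-fold, and 0 to 1 with a library left out. Leaving out a library ended at least 1 call for Tedc2, Ccnf, Amz1, Cdk20, Gadd45g, Smyd4 and Tonsl. The causes were not tested.

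A replicate block for LPS with JSH-23 gave 67 lower and 1 higher, the same genes for the 67. Correlations of deviations between same-numbered samples were 0.04, -0.03 and 0.04 in WT and WTL and 0.19, 0.06 and 0.32 in the JSH-23 groups, where replicate 2 correlated better with another number, so the numbers were not taken as pairs. No paired analysis was possible for WT + JSH23 against WT because they share no replicate number.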
